A study of Mus musculus with 16 samples.

Results

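The 10 cathepsin genes Ctsa, Ctsb, Ctsc, Ctsd, Ctsf, Ctsh, Ctsk, Ctsl, Ctss and Ctsz were examined in the skin of ageing mice. They were taken from the deposited count table by gene symbol, where they are 10 of 45706 genes, and all 10 passed the filter on low counts. The series holds RNA-seq of ear skin clipped from 8 male mice of the inbred strain C57Bl/6J, with no genetic change or treatment named for either group. Each mouse was clipped in the first ear at 23.8 to 24.4 months of age, a group that the labels call young, and in the second ear at 29.0 to 30.1 months, a group that they call old. The 16 libraries therefore form 8 within-animal pairs, given here as 24 and 30 months, and the comparison asks how each cathepsin changed within a mouse between these ages. Age and the ear clipped cannot be told apart in this design. The libraries held 22967222 to 36162431 reads on genes, and each cathepsin had between 1068 and 28946 reads in a library, so that counting error is small beside the spread between mice.

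Cathepsins are proteases that work mainly in the acidic interior of the lysosome, where they degrade proteins delivered by endocytosis, phagocytosis and autophagy. They are made as inactive precursors, sorted to the lysosome mostly through mannose 6-phosphate receptors, activated by cleavage at low pH, and restrained outside the lysosome by cystatins and serpins. In skin they take part in antigen presentation, collagen turnover, the ripening of keratinocytes and the hair cycle. Ctsd encodes an aspartic protease and Ctsa a serine carboxypeptidase. The other 8 encode cysteine proteases, of which Ctsb, Ctsf, Ctsk, Ctsl and Ctss are grouped here as endopeptidases and Ctsc, Ctsh and Ctsz as exopeptidases.

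RefSeq promoter windows of GRCm38.p6 were found for 8 of the 10 genes. The windows are shown for 6 of these genes because they hold the letters of a motif tied either to lysosomal genes or to myeloid cells, and because Ctsk and Ctss are chromosome 3 neighbours with 17424 bases between them. Each sequence runs 5′ to 3′ on the strand of the gene, from 250 bases before the RefSeq start site to 20 after it. In the next 4 sequences capitals mark CACGTG, the core of the sites bound by TFEB and its relatives, or the longer TCACGTGA where it is complete.
Ctsd (chr7:142387808-142388077, - strand): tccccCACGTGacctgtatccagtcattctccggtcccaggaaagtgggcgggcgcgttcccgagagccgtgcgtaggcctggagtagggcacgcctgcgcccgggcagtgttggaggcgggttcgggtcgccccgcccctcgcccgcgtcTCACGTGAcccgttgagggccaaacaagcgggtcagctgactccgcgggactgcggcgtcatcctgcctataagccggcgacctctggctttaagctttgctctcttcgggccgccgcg
Ctsa (chr2:164833523-164833792, + strand): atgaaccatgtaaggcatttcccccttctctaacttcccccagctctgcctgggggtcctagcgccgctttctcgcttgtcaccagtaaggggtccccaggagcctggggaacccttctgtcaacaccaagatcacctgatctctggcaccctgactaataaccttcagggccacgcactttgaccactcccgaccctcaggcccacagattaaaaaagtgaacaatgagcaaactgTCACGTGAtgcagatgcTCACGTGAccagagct
Ctsf (chr19:4854915-4855184, + strand): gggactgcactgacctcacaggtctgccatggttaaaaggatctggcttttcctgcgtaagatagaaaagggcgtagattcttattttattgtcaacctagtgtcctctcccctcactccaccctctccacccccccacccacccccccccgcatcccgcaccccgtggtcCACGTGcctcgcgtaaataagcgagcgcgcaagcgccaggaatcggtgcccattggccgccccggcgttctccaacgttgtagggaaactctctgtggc
Ctsl (chr13:64370501-64370770, - strand): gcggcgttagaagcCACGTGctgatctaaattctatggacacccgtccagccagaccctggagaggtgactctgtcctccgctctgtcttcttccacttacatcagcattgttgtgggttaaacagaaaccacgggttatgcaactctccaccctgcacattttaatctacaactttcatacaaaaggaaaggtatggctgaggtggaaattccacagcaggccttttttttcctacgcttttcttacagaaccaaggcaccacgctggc
In the other two, capitals mark GAGGAA on either strand, a core recognised by PU.1, a transcription factor of macrophages and other myeloid cells.
Ctss (chr3:95526536-95526805, + strand): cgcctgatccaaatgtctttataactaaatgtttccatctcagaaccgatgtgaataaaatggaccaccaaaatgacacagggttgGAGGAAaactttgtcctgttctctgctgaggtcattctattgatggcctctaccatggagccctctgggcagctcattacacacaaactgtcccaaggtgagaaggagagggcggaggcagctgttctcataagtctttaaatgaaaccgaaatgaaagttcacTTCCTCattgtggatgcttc
Ctsk (chr3:95498960-95499229, + strand): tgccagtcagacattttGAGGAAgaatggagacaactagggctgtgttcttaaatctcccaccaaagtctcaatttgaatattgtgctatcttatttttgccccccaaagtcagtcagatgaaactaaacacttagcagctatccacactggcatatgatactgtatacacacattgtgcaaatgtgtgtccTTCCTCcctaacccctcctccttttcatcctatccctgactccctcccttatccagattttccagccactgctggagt

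CACGTG reads the same on both strands and was found in 4 of the 8 genes with a window, against 8.09% of the 27025 genes in the RefSeq table. Ctsd held it at positions -245 and -98 from the start, and Ctsa, which has 2 windows, held it only in the window shown, at positions -12 and 6. The 8 letters TCACGTGA, which contain CACGTG, were present in Ctsd and Ctsa, against 1.12% of all genes. GAGGAA was found in Ctsc, Ctsk and Ctss, against 31.3% of all genes, so this share of 3 in 8 was near the background. These are matches of letters in a window and not measured binding sites.

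No cathepsin differed between 24 and 30 months after adjustment for all genes. The quasi-likelihood test of edgeR, with the mouse as a block, called 0 of the 21526 genes tested (0.0%) at an adjusted p under 0.05, and therefore 0 of the 10 cathepsins. DESeq2's Wald test called 240 genes and none of the 10. At an unadjusted p under 0.05 the edgeR test passed 2593 genes (12.0%, of which 4.86 percentage points were higher and 7.18 lower at 30 months) but 0 cathepsins in either direction. This number of cathepsins was 4 without mouse 13 (Ctsb, Ctsh, Ctsl and Ctss), 1 without mouse 21 (Ctsa) and 0 without any other mouse, and it was 0 after adjustment each time. All 10 log2 changes lay above 0, as did 51.7% of all genes. Their median was 0.144 on the log2 scale beside 0.0069 for all genes, and they ranged from 0.06 for Ctsk to 0.50 for Ctss. Adjusted p-values of the 10 ranged from 0.472 to 0.936. The values of the 2 ages overlapped for every cathepsin, where 0.195% of all genes did not overlap. At 30 months Ctss was the higher value in 7 of 8 mice and Ctsa and Ctsl in 6 of 8, and these 3 of 10 compare with 19.6% of all genes that were higher in at least 6 mice. A biopsy is bulk tissue, so a change in the number of cells of a type and a change of RNA per cell cannot be told apart in any of these values.

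**Figure D1:**
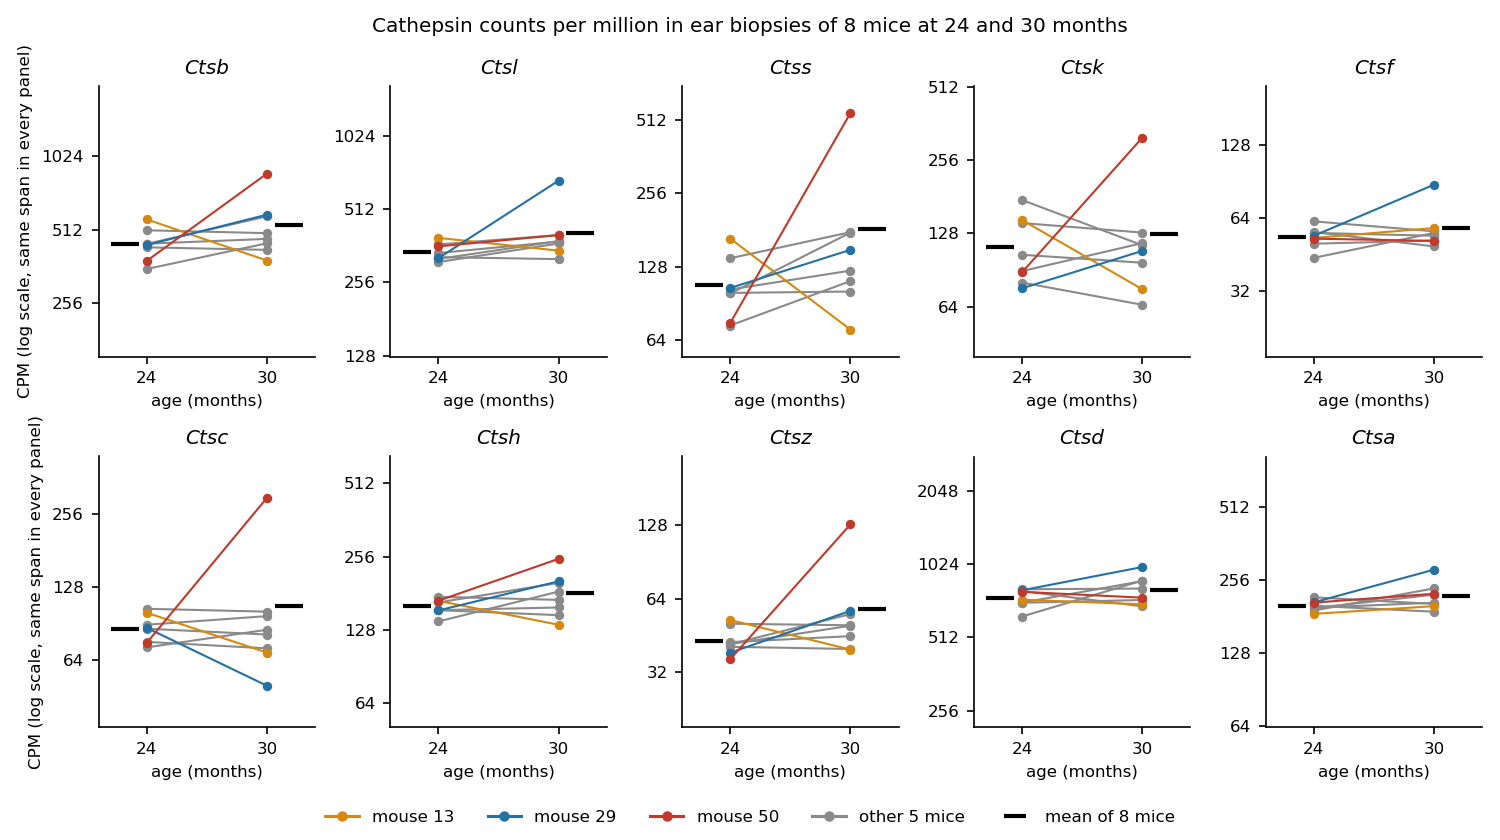
CPM (counts per 1000000 reads on genes, log scale, the same span in every panel) of each cathepsin in the 8 mice at 24 and 30 months, with a line for each mouse and a black bar for the mean of the 8. Mouse 50 stands above the other libraries at 30 months for Ctss, Ctsc, Ctsk and Ctsz, and mouse 29 for Ctsl and Ctsf.

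Ctss (ENSMUSG00000038642, chr3:95526786-95556403, + strand) showed the widest differences between mice at 30 months (gene positions are those of GENCODE M21 on GRCm38). Its product, cathepsin S, trims the invariant chain in antigen-presenting cells and stays active at neutral pH. Its CPM (counts per 1000000 reads on genes, with TMM-scaled library sizes) was 73.3 at the lowest, 101 at the median and 167 at the highest at 24 months. At 30 months these values were 70.5, 137 and 548. The highest value, in mouse 50, was 3.09 times the next one, 177 CPM in mouse 64, and the lowest came from mouse 13, which had the highest value at 24 months. The fitted log2 change was 0.50 ± 0.34 (SE, n = 8 mice, edgeR adjusted p = 0.567), and 7 of 8 mice were higher at 30 months. Without mouse 50 the change was 0.21 and without mouse 13 it was 0.75, which passed only unadjusted (edgeR adjusted p = 0.418).

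Ctsk (ENSMUSG00000028111, chr3:95499256-95509362, + strand) encodes cathepsin K, the collagen-degrading protease of osteoclasts that fibroblasts of the skin can also make. Its CPM ran from 76.1 over a median of 97.1 to 176 at 24 months and from 65.1 over a median of 111 to 316 at 30 months. Mouse 50 was again the highest at 30 months, but only 3 of 8 mice were higher at that age, and the fitted log2 change was 0.06 ± 0.26 (SE). Without mouse 50 it was -0.17, so the sign of the Ctsk change rests on that animal, and without mouse 13 it was 0.22. Of the 5 osteoclast markers Calcr, Dcstamp, Ocstamp and Oscar failed the filter on low counts, which left only Acp5.

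Cathepsin B, encoded by Ctsb (ENSMUSG00000021939, chr14:63122462-63145923, + strand), is an abundant lysosomal protease with both endopeptidase and carboxydipeptidase activity. Its CPM ran from 353 over a median of 445 to 564 at 24 months and from 382 over a median of 482 to 871 at 30 months. The high end was mouse 50, at 1.48 times the next library, and mouse 13 moved from the highest value at 24 months to the lowest at 30. The log2 change was 0.22 ± 0.16 (SE) with 5 of 8 mice higher, and it was 0.08 without mouse 50 and 0.34 without mouse 13 (passed only unadjusted, edgeR adjusted p = 0.423).

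Ctsl (ENSMUSG00000021477, chr13:64359337-64370890, - strand) encodes cathepsin L, which in mouse skin is needed for the normal hair cycle and epidermal turnover. It ran from 311 over a median of 332 to 390 CPM at 24 months and from 319 over a median of 378 to 672 CPM at 30 months. Here mouse 29 was the high one, at 1.68 times the next library, while mouse 50 had 401 CPM, close to the other mice. The log2 change was 0.22 ± 0.12 (SE, edgeR adjusted p = 0.476) with 6 of 8 mice higher, and it was 0.12 without mouse 29. Ctsl shares exon bases with an antisense gene and a pseudogene copy that are not in the count table.

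Ctsf (ENSMUSG00000083282, chr19:4855130-4860918, + strand), for the widely expressed cathepsin F, had the fewest reads per length of the 10. It ran from 44.0 over a median of 53.6 to 62.1 CPM at 24 months and from 49.0 over a median of 54.9 to 87.9 CPM at 30 months. The 87.9 CPM belonged to mouse 29, and the next value at that age was 58.3 CPM. The log2 change was 0.10 ± 0.10 (SE), it was 0.03 without mouse 29, and 4 of 8 mice were higher.

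Among the exopeptidases, Ctsc (ENSMUSG00000030560, chr7:88278085-88310888, + strand) was the most uneven between mice at 30 months. Cathepsin C removes dipeptides and activates some granule proteases of mast cells, neutrophils and cytotoxic lymphocytes. Ctsc ran from 72.1 over a median of 86.4 to 104 CPM at 24 months and from 50.1 over a median of 83.3 to 297 CPM at 30 months. Both ends at 30 months were single animals, mouse 29 at the bottom and mouse 50 at the top, where the next value at that age was 101 CPM. Only 3 of 8 mice were higher at 30 months, and the log2 change of 0.08 ± 0.25 (SE) became -0.17 when mouse 50 was left out. Leaving out mouse 29 or mouse 13 instead gave 0.21 or 0.18.

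Ctsz (ENSMUSG00000016256, chr2:174427493-174439039, - strand) encodes cathepsin Z, a carboxypeptidase found mostly in myeloid cells. Its CPM ran from 36.1 over a median of 41.6 to 52.3 at 24 months and from 39.5 over a median of 49.6 to 129 at 30 months. Mouse 50 gave both the lowest value at 24 months and the highest at 30, 2.27 times the next library. The log2 change was 0.33 ± 0.20 (SE, edgeR adjusted p = 0.539) with 5 of 8 mice higher, and 0.12 without mouse 50. Ctsz shares 10 exon bases with Nelfcd on the opposite strand.

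Ctsh (ENSMUSG00000032359, chr9:90054152-90076089, + strand), for the aminopeptidase cathepsin H, varied less. It ran from 139 over a median of 160 to 175 CPM at 24 months and from 134 over a median of 177 to 251 CPM at 30 months, with mouse 50 highest and mouse 13 lowest at the later age. The log2 change was 0.16 ± 0.10 (SE), with 5 of 8 mice higher. Without mouse 50 it was 0.10, and without mouse 13 it was 0.24 (passed only unadjusted, edgeR adjusted p = 0.412).

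Ctsd (ENSMUSG00000007891, chr7:142375911-142388038, - strand) and Ctsa (ENSMUSG00000017760, chr2:164832873-164841032, + strand), which are not cysteine proteases, were the steadiest at 24 months beside Ctsh and Ctsl. Ctsd, the aspartic protease that helps to process other lysosomal enzymes, ran from 624 over a median of 760 to 808 CPM at 24 months and from 688 over a median of 780 to 997 CPM at 30 months, a log2 change of 0.10 ± 0.09 (SE). Without mouse 43 the change was 0.05 and without mouse 21 it was 0.15. The highest Ctsd value came from mouse 29, and mouse 50 lay at 746 CPM, below the median. Ctsa, whose product also protects β-galactosidase and neuraminidase in the lysosome, ran from 186 over a median of 199 to 217 CPM at 24 months and from 189 over a median of 214 to 282 CPM at 30 months, again highest in mouse 29. Its log2 change of 0.13 ± 0.07 (SE) had the smallest p-value of the 10 (edgeR adjusted p = 0.472). Ctsa shares exon bases with Neurl2 and Pltp, and Ctsb with Fdft1, all on the opposite strand, and the library kit does not mark strand. Ctsd shares 808 of its 2351 exon bases with Gm49369, a protein-coding gene on the same strand that is not in the count table.

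Differences between mice were larger at 30 than at 24 months for all 10 cathepsins, measured as the SD of log2 CPM, and for 78.0% of all genes. For Ctss the SD was 0.40 at 24 months and 0.88 at 30 months, and for Ctsc 0.19 and 0.76. Ctsd moved least by this measure, from 0.13 to 0.19. Without mouse 50 the SD was larger at 30 months for 9 of 10 cathepsins (73.4% of all genes), and without mice 29 and 50 for 6 of 10 (63.0%).

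**Figure D2:**
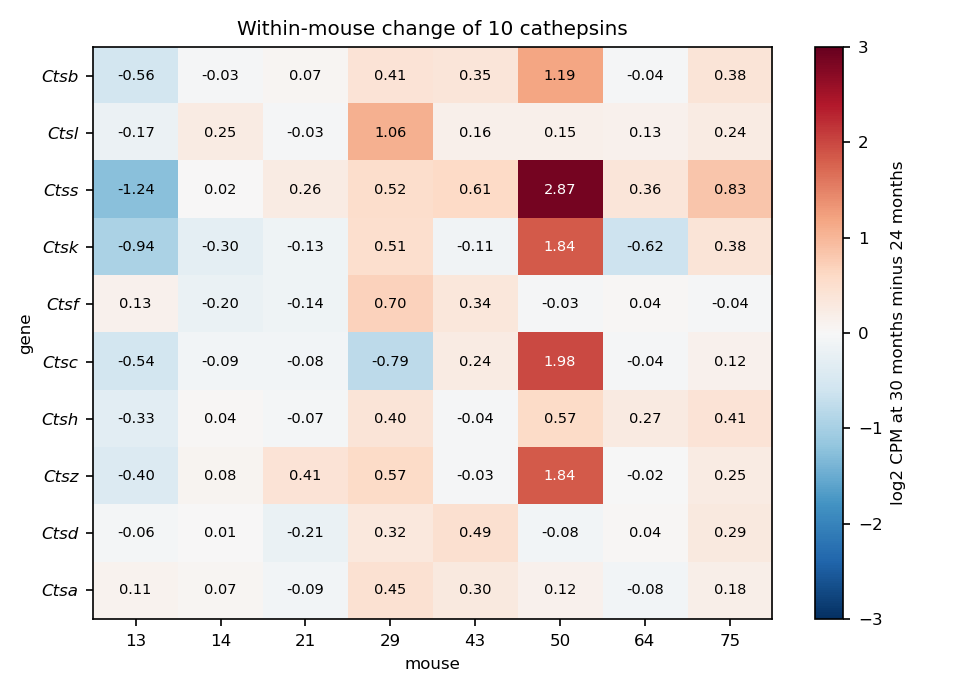
Change of each cathepsin within each mouse, as log2 CPM at 30 months minus 24 months, with the value written in each cell and the colour scale running from -3 to 3. Ctss has both the highest value (2.87, mouse 50) and the lowest (-1.24, mouse 13), and mouse 29 has 1.06 for Ctsl and -0.79 for Ctsc.

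The 3 mice with the largest changes differed in which cathepsins moved, and they were singled out after their values had been seen. Mouse 50 at 30 months had the highest value of the 16 libraries for 6 cathepsins, Ctsb, Ctsc, Ctsh, Ctsk, Ctss and Ctsz, where it was the highest for 12.0% of all genes. It exceeded every other library by more than 1.5 times for 4 of them, Ctsc, Ctsk, Ctss and Ctsz, against 4.01% of all genes. Relative to 24 months in the same mouse, Ctss was 7.30-fold higher, Ctsc 3.95-fold, Ctsz 3.58-fold, Ctsk 3.58-fold and Ctsb 2.29-fold. In that library Ctsd and Ctsf changed by -0.08 and -0.03 on the log2 scale.

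Mouse 29 at 30 months had the highest value for the other 4, Ctsa, Ctsd, Ctsf and Ctsl, where it was the highest for 17.6% of all genes. Ctsl was 2.08-fold and Ctsf 1.62-fold higher than at 24 months in that mouse, whereas Ctsc was at 0.578 of its earlier level. Mouse 13 moved the other way. At 30 months Ctss was at 0.423 of its level at 24 months and Ctsk at 0.520, and 4 of the 10, Ctsc, Ctsh, Ctsk and Ctss, lay below all 8 libraries of 24 months, as did 17.4% of all genes.

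Levels of different cathepsins were compared as RPKM, reads per kilobase of exon scaled to the reads on genes. Ctsd was the most abundant at 319 ± 30.9 RPKM (SD, n = 8) at 24 months and 340 ± 41.1 at 30 months, and made up 42.3% of the summed RPKM of the 10 on average. Ctss, Ctsb, Ctsk and Ctsl followed, with means of 52.9 to 79.8 RPKM at 24 months. Ctsa, Ctsh and Ctsz lay between 29.9 and 42.6 RPKM, and Ctsc and Ctsf were the lowest at 14.9 and 10.7 RPKM. The order was set on the mean log2 RPKM of the 2 libraries of a mouse. Of its 9 pairs of neighbours 7 differed, each at an adjusted p of 0.0176 to 0.0301 (exact sign-flip permutation test, two-sided, 8 mice, Benjamini-Hochberg over the 9). Ctsb and Ctsk did not differ beyond the spread between mice (exact p = 0.359), nor did Ctsk and Ctsl (exact p = 0.0547, adjusted p = 0.0615). With the longest transcript as length only 3 neighbours differed and Ctss came after Ctsb. With the coding length Ctss ranked 6 and Ctsl 3, while Ctsd stayed first and Ctsf last with each length. By exon length, Ctss made up 29.0% of the summed RPKM in mouse 50 at 30 months and Ctsd 22.8%, the 1 library of 16 with Ctss above Ctsd. This order did not hold with the coding length. That library had 17414 reads for Ctss and 23712 for Ctsd, over coding lengths of 1023 and 1230 bases.

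**Figure D3:**
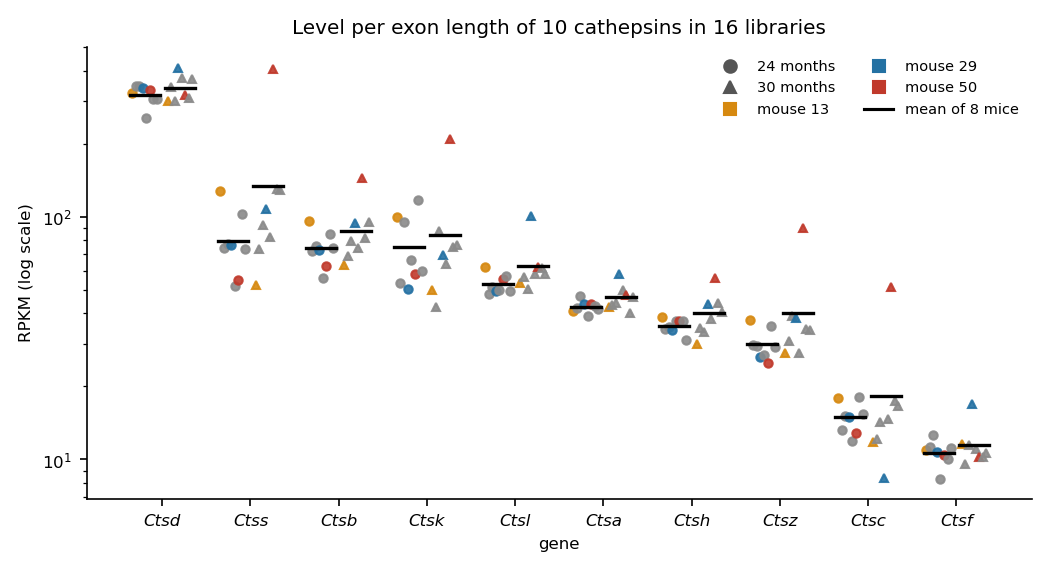
Level per exon length (RPKM, log scale) of the 10 cathepsins in the 16 libraries, with circles for 24 months, triangles for 30 months, colours for mice 13, 29 and 50 and black lines for the means of 8 mice. Ctsd lies highest, with means of 319 and 340 RPKM, and Ctsf lowest, with means of 10.7 and 11.5 RPKM.

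The cathepsins were also compared with each other in how much they changed. Of the 45 pairs, 0 differed after adjustment in their within-mouse log2 change (exact sign-flip permutation test, two-sided, 8 mice, smallest adjusted p = 0.975), and 1 had an unadjusted p under 0.05. That pair was the chromosome 3 neighbours, with Ctsk changing by 0.45 ± 0.46 (SD) less than Ctss on the log2 scale and Ctss the larger in 7 of 8 mice (exact p = 0.0234). In mouse 64 the signs differed, where Ctsk changed by -0.62 and Ctss by 0.36 on the log2 scale. With 8 mice the smallest p that this test can give is 0.00781, so over 45 pairs a single pair could not pass after adjustment. Without mouse 13 the number of pairs at an unadjusted p under 0.05 was 7, and still 0 after adjustment. These counts of 0 therefore do not show that the cathepsins changed alike.

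Across the 16 libraries the cathepsins fell into 2 sets of like profile, which were drawn after their values had been seen and so carry no test. In the set around Ctss, with Ctsb, Ctsc, Ctsh, Ctsk and Ctsz, the 15 pairs had a median Pearson r of log2 CPM of 0.79 (range 0.57 to 0.97). In the set around Ctsd, with Ctsa, Ctsf and Ctsl, the median of 6 pairs was 0.71, and between the sets it was 0.17. These sets are those in which mouse 50 and mouse 29 gave the highest library. Without these 2 libraries the median was 0.58 in the Ctss set and 0.29 in the Ctsd set. Ctss and Ctsb remained close at r = 0.95 and Ctsa and Ctsd at r = 0.73. Ctsl then had r of 0.03 with Ctsa, 0.21 with Ctsd and -0.33 with Ctsf in its own set. With the genes of the Ctss set its r ran from 0.25 (Ctsk) to 0.71 (Ctsh). The place of Ctsl in the Ctsd set was therefore not kept without these 2 libraries. The 16 points share mice in pairs, so the values describe these libraries.

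**Figure D4:**
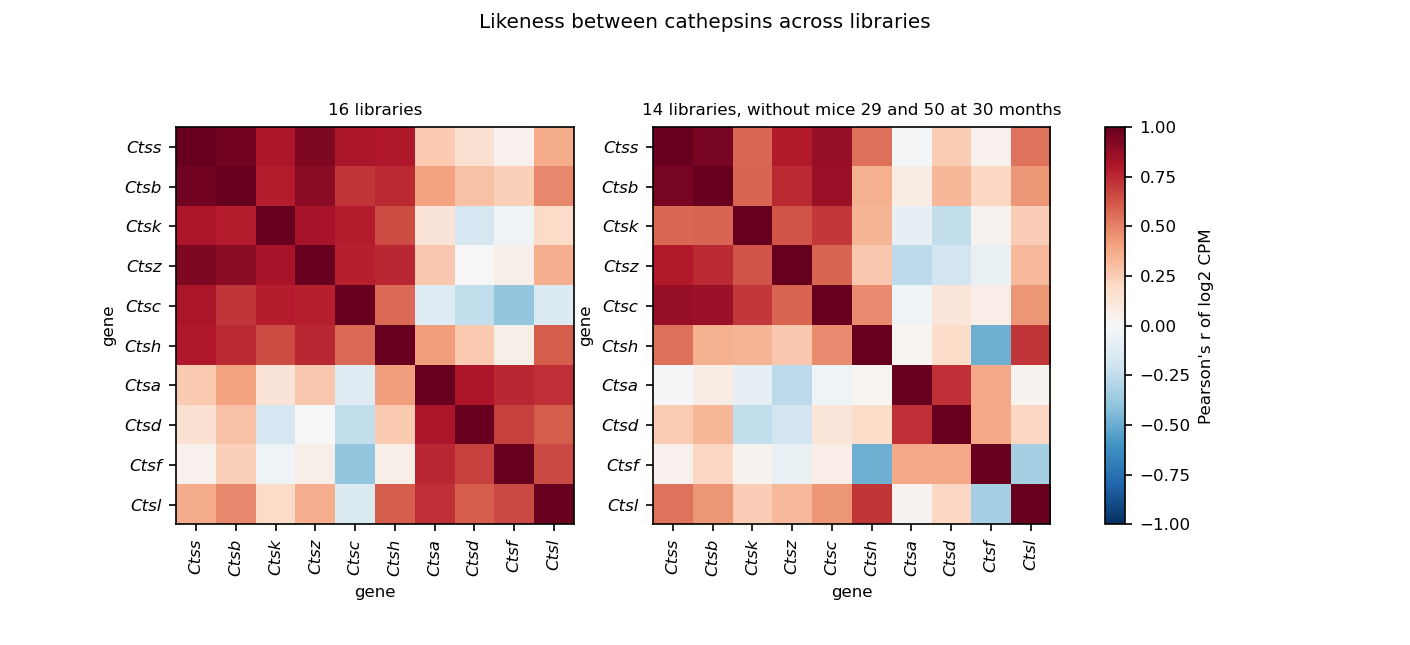
Pearson's r of log2 CPM between each pair of cathepsins, over all 16 libraries on the left and over 14 libraries without mice 29 and 50 at 30 months on the right, with colours from -1 to 1. The set around Ctss has a median r of 0.79 on the left and 0.58 on the right, and the set around Ctsd 0.71 and 0.29.

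The genes most like each cathepsin were taken from 17785 genes with a mean CPM of at least 1, by Pearson r of log2 CPM over the same 16 libraries. Ctss lay closest to Clec4a1, a C-type lectin of myeloid cells, at r = 0.98, and to Lgmn, which encodes the lysosomal protease legumain, also at r = 0.98. Ctsb lay closest to Lgmn at r = 0.97 and to Ms4a6d at r = 0.96. For Ctsz these were Srgn, the proteoglycan of secretory granules, at r = 0.97 and Snx10 at r = 0.96. Ctsc lay closest to Coro1a, an actin regulator of blood cells, at r = 0.98 and to Selplg, the P-selectin ligand of leukocytes, at r = 0.98. Ctsk was most like Rab31 and the pseudogene Gm5637, both at r = 0.92, and Ctsh most like Sdf4 (r = 0.91) and Rnf130 (r = 0.90). Ctsd was most like Dtx4 and the wax synthase gene Awat1, both at r = 0.91. The closest to Ctsa were Mocs1 (r = 0.96) and Rab35 (r = 0.93), and to Ctsf Tulp3 and Cnppd1, both at r = 0.94. For Ctsl these were Serinc3 and the pseudogene Gm6054, both at r = 0.93. Every r named here was lower without the libraries of mice 29 and 50 at 30 months. The values then ran from 0.66 for Ctsl with Gm6054 to 0.95 for Ctss with Clec4a1. Ctsl with Serinc3 had 0.73, and Ctsf had 0.78 with Tulp3 and 0.75 with Cnppd1.

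Markers of the cells that an ear biopsy can hold were read beside the cathepsins. Summed CPM of markers was scaled to the reads on genes without TMM, while the log2 changes of markers kept the TMM scaling. All 10 macrophage markers passed the filter on low counts, and their summed CPM ranged from 418 to 734 at 24 months (median 485) and from 388 to 1589 at 30 months (median 615). In mouse 50 this sum went from 422 to 1589. Over the 8 mice the change of Ctss followed the mean log2 change of these markers, with Pearson's r = 0.997 and Spearman's rho = 0.976 (exact permutation test, two-sided, adjusted over 40 relations p = 0.00198 and 0.0159). Without mice 13 and 50, the farthest from the median, r was 0.957 (exact p = 0.00556), and leaving out any mouse left r at 0.992 or above and the adjusted p at 0.0159 or below. The mean log2 change of the markers was 0.33 ± 0.81 (SD) with 7 of 8 mice higher, beside 0.53 ± 1.14 (SD) for Ctss. The part of the macrophage content in the Ctss change was not tested.

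Ctsb (r = 0.979, adjusted p = 0.0159), Ctsk (r = 0.929, adjusted p = 0.0262) and Ctsh (r = 0.832, adjusted p = 0.0360) also followed the macrophage markers by Pearson's r (exact permutation test). Their Spearman's rho did not pass after adjustment, at 0.833, 0.833 and 0.857 (adjusted p = 0.103 for each, exact permutation test). Without mice 13 and 50 their r was 0.837, 0.579 and 0.543 (exact p = 0.0889, 0.244 and 0.249), so the Ctsk and Ctsh relations rest on those animals, while the Ctsb relation kept most of its size but not its call at 6 mice. Without mouse 13 or mouse 50 alone, r for Ctsb was 0.965 or 0.947 (adjusted p = 0.127 for each, exact permutation test). Ctsz (r = 0.894, rho = 0.500) and Ctsc (r = 0.854, rho = 0.714) did not pass after adjustment, with adjusted p-values for r of 0.0541 and 0.114 in the exact permutation test. Ctsa, Ctsd, Ctsf and Ctsl had r between -0.04 and 0.24 and rho between 0.143 and 0.595 with these markers. Without mice 13 and 50 their r was 0.637, 0.866, 0.472 and 0.266, of which that of Ctsd had an unadjusted exact p of 0.0306. Without mouse 50 alone r for Ctsd was 0.650 (adjusted p = 0.454, exact permutation test).

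Ctsc changed with the 6 fibroblast markers (r = 0.944, adjusted p = 0.0262, rho = 0.833, adjusted p = 0.103, exact permutation test), and r was 0.933 without mice 21 and 50 (exact p = 0.00694). Without mouse 50 alone it was 0.709 (adjusted p = 0.433). The summed CPM of these markers, which include Col1a1 and Col1a2, went from 3480 to 10825 in mouse 50 and from 3752 to 2384 in mouse 29, the animals with the highest and the lowest Ctsc. Dendritic and Langerhans cell markers moved the same way in these animals, with mean log2 changes of 1.17 in mouse 50 and -1.08 in mouse 29. Only the macrophage, fibroblast and 2 keratinocyte lists were set against the cathepsins, so the Ctsc relation is not shown to be particular to fibroblast markers. Ctsh changed against the basal keratinocyte markers (r = -0.899, adjusted p = 0.0262, rho = -0.857, adjusted p = 0.103, exact permutation test), and r was -0.703 without mice 13 and 50 (exact p = 0.164). In all 6 of the 40 relations passed by r and 1 by rho. The number passed by r was 1 without mouse 13 or without mouse 50, 2 without mouse 75 and 10 without mouse 29. The share of all genes that follow these markers as closely was not computed, so the relations are not shown to be particular to cathepsins. Markers of other cells were also higher in mouse 50, with the 6 T and NK cell markers at 33.8 CPM in sum at 24 months and 144 at 30 months, and the 6 mast cell markers at 304 and 722. In mouse 29 at 30 months the dendritic and Langerhans cell markers, 7 in number, summed to 163 CPM, the lowest of the 16 libraries. The part of these cells in the cathepsin values was not tested.

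Of the 17 marker lists 0 had a gene past the adjusted threshold. Mean log2 changes ± SD over the mice follow for the lists not yet described. They were 0.78 ± 1.64 for neutrophils (3 of 6 markers past the filter), 0.01 ± 0.09 for differentiated keratinocytes and -0.63 ± 1.59 for the hair follicle. Sebaceous glands had 0.11 ± 0.57, cartilage -0.38 ± 0.30, skeletal muscle 0.85 ± 2.21 and fat cells 0.31 ± 1.29. Endothelium had 0.55 ± 0.63, pigment cells -0.54 ± 0.87 and red blood cells 0.18 ± 1.24. The median summed CPM of the differentiated keratinocyte markers was 18838 at 24 months and 16129 at 30 months.

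**Figure D5:**
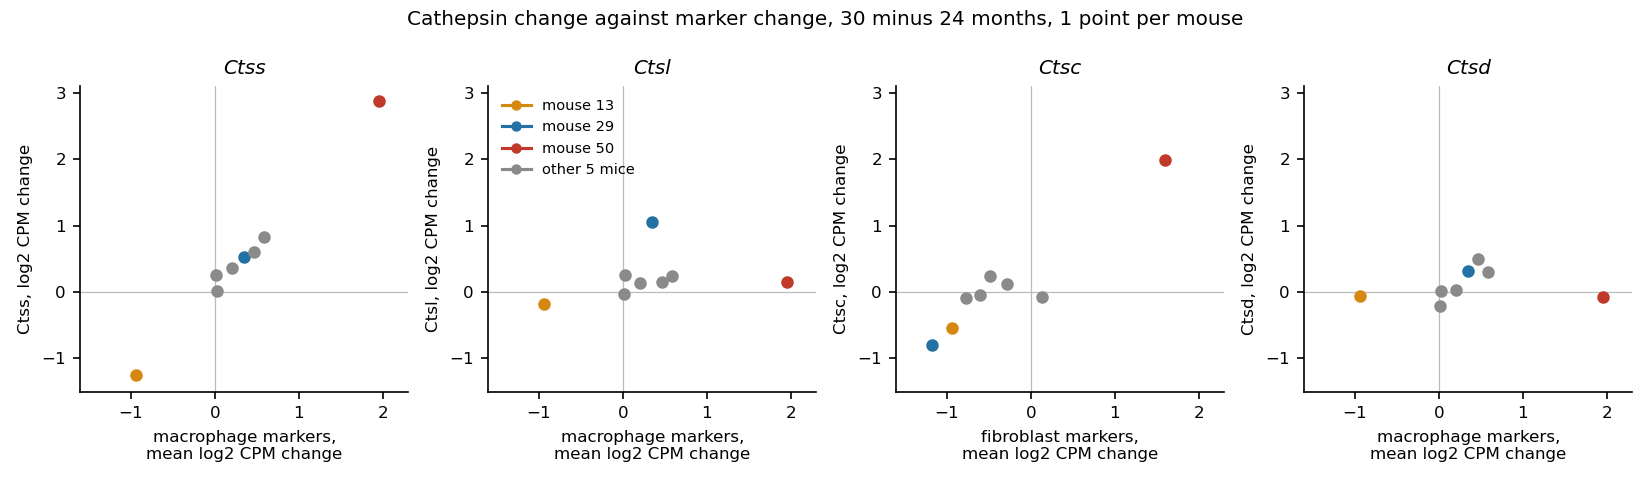
Log2 CPM change of a cathepsin (30 minus 24 months) against the mean log2 CPM change of macrophage or fibroblast markers, 1 point per mouse. Ctss lies along a line with the macrophage markers (r = 0.997), Ctsc changes with the fibroblast markers (r = 0.944), and Ctsl and Ctsd have r of 0.24 and 0.12 with the macrophage markers, or 0.27 and 0.87 without mice 13 and 50.

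Genes that act with the cathepsins were read from 7 lists, and none of their members passed the adjusted threshold in the edgeR test. Of the 13 other cathepsin genes 4 passed the filter on low counts and 7 had no read in any library. Ctso, the most abundant of them, ran from 25.8 to 33.4 CPM at 24 months and from 23.4 to 43.6 CPM at 30 months. Ctsw, of cytotoxic lymphocytes, had 29.3 CPM in mouse 50 at 30 months and at most 9.04 CPM at 24 months. Ctsg, of granulocytes and mast cells, had a log2 change of -0.75 with 2 of 8 mice higher (edgeR adjusted p = 0.434).

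The inhibitor list had 13 of 15 genes tested, with a median log2 change of 0.24 and 11 of 13 above 0, beside 51.7% of all genes. Cst3, the cystatin secreted by most cells, was the most abundant at 731 ± 107 CPM (SD, n = 8) at 24 months and 758 ± 150 at 30 months. Cst6, the cystatin of the upper epidermis and hair follicle, ranged from 347 to 631 CPM at 24 months and from 259 to 1184 CPM at 30 months, with mouse 29 the highest. Cstb, which encodes the intracellular inhibitor stefin B, was higher in 7 of 8 mice with a log2 change of 0.27 ± 0.10 (SE, passed only unadjusted, edgeR adjusted p = 0.353), and it passed unadjusted in 4 of 8 fits with a mouse left out. Serpinb13, a serpin of keratinocytes known to inhibit cathepsins K and L and named after its values were seen, was lower in all 8 mice with a log2 change of -0.67 ± 0.20 (SE, edgeR adjusted p = 0.279). It passed in DESeq2's Wald test (adjusted p = 0.0467).

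For activation, sorting and partners 10 of 10 genes were tested, with a median log2 change of 0.00 and 2 lower at an unadjusted p under 0.05. Psap, the saposin precursor, ran from 619 to 892 CPM at 24 months and from 703 to 1327 CPM at 30 months, and Lgmn from 72.8 to 131 CPM and from 80.5 to 296 CPM. Mouse 50 was the highest for both at 30 months. Their log2 changes were 0.15 and 0.40, and 0.05 and 0.18 without mouse 50. M6pr, the cation-dependent mannose 6-phosphate receptor, had a log2 change of 0.10. The 2 lower genes were Sort1 (log2 change -0.25) and Gnptab (-0.18), a sorting receptor and a subunit of the enzyme that makes the mannose 6-phosphate tag, with edgeR adjusted p-values of 0.333 and 0.400. With a mouse left out they passed unadjusted in 6 and 2 of 8 fits.

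The 4 factors Tfeb, Tfe3, Tfec and Mitf, which recognise the E-box letters printed for Ctsd and Ctsa, had log2 changes between -0.07 and 0.18, and 0 passed even unadjusted. Of 25 subunits of the proton pump that acidifies lysosomes 23 were tested, with a median log2 change of 0.01. The most abundant, Atp6ap1, Atp6v0d1 and Atp6v1g1, changed by -0.06, 0.05 and 0.05. At an unadjusted p under 0.05 Tcirg1 was higher (log2 change 0.31, edgeR adjusted p = 0.394, 0.18 and no longer passed without mouse 50) and Atp6v1b1 lower (-0.91, adjusted p = 0.325).

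Among 7 substrates Cd74, the invariant chain cut by cathepsin S, was lower in 7 of 8 mice and went up to 1403 CPM in mouse 50 at 30 months, for a log2 change of -0.14 (edgeR adjusted p = 0.844). Without mouse 50 it was -0.39 (passed only unadjusted, edgeR adjusted p = 0.387) and without mouse 29 it was 0.04. Col1a1 and Col1a2 had log2 changes of -0.64 and -0.59 with 2 of 8 mice higher (edgeR adjusted p = 0.584 and 0.565). Without mouse 50 these were -1.01 and -0.93, which passed only unadjusted (edgeR adjusted p = 0.213 for both). The cartilage collagen Col2a1 was lower in all 8 mice, at 10.2 ± 3.54 CPM (SD, n = 8) at 24 months and 6.63 ± 2.64 at 30 months (edgeR adjusted p = 0.141), and passed in DESeq2's Wald test (adjusted p = 0.000379). Of the 8 granule proteases listed with cathepsin C 6 were tested, and which of them need it for activation was not examined. The mast cell proteases Mcpt4, Cma1 and Tpsb2 had log2 changes of -0.23, 0.24 and 0.13 with edgeR adjusted p-values of 0.658 to 0.813. Without mouse 50 these were -0.42, 0.05 and -0.02, of which that of Mcpt4 passed only unadjusted (edgeR adjusted p = 0.290). In mouse 50 at 30 months, where Ctsc was highest, these 3 stood at 185, 171 and 133 CPM, each the highest at that age.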

How the data were processed

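The authors made libraries with a TruSeq RNA kit (v2), which does not mark strand, and deposited raw read counts per gene, not normalized, with every library kept apart. The submitters' processing notes name CASAVA 1.8.4, TopHat2 2.1.0, HTSeq 0.6.1p1 and mm10, and whether the counter used strand is not given in the sources used here. Summary lines that name no gene, 18.7% to 21.1% of a library's reads, were left out, and 0 columns of other samples were present. GENCODE M21 gave symbols, positions and exon lengths for 45143 of 45706 identifiers.

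Counts were tested with edgeR 4.0.16 in R 4.3.3 (TMM, filterByExpr, quasi-likelihood test, a term for each mouse, Benjamini-Hochberg over all genes, threshold 0.05). The pairing comes from the animals: both libraries of a pair are from the same mouse. Deviations from the age means correlated at a median of -0.0229 within a mouse and -0.00544 between mice. P-values measure the spread between these mice. Each mouse gave 1 library per age, so differences between mice and between biopsies of a mouse cannot be told apart in that spread. Log2 CPM used a prior count of 2. Exact tests ran in scipy 1.17.1 and numpy 2.4.6 under Python 3.11.15. Scripts were tested on simulated data. Alternatives were DESeq2 size factors, the Wald test of DESeq2 1.42.0, other count filters, no block, age in months, other lengths, a pseudocount of 1 CPM, and each mouse left out. Leaving out mice 29 and 50 together, and the spread without them, were added after seeing the data.

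The members, gene lists and markers were chosen with earlier results of these data known. Named are the 10 cathepsins, the 3 most abundant genes per length of each pathway list, any list gene past the threshold, and the 2 genes most like each cathepsin. Other genes were named after their values were seen. Csta2 was not matched in the table. Marker lists were macrophage, dendritic and Langerhans cell, osteoclast, mast cell, neutrophil, T and NK cell, basal and differentiated keratinocyte, hair follicle, sebaceous gland, fibroblast, cartilage, skeletal muscle, fat cell, endothelial, pigment cell and red blood cell.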

Additional observations from a re-analysis of the deposited data

Results flagged for a closer look

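Values of the 10 cathepsins at each age, and their within-mouse changes, were examined for a library or mouse far from the rest, by the gap to the nearest other value over the range of the 8. This found 10 of 30 groups, where about 1.5 would be found if values were normal and groups independent. The groups share libraries, so the shares over all genes are the closer comparison. Among all genes it found 15.8% at 30 months, 9.51% at 24 months and 9.07% for the change, and for the cathepsins 7 at 30 months, 0 at 24 months and 3 for the change.

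Mouse 50 accounted for 7 of the 10. At 30 months it stood apart for Ctsb (871 CPM), Ctsc (297 CPM), Ctsk (316 CPM), Ctss (548 CPM) and Ctsz (129 CPM). Its change also stood apart for Ctsc (1.98 on the log2 scale) and Ctsz (1.84). Mouse 29 accounted for the other 3, with Ctsf (87.9 CPM) and Ctsl (672 CPM) at 30 months and the Ctsl change (1.06 on the log2 scale). Macrophage, dendritic and Langerhans cell, fibroblast, mast cell, T and NK cell and endothelial markers were highest at 30 months in mouse 50. Fat cell and neutrophil markers were highest at that age in mouse 29. Fat cell markers had 299 CPM in sum there, against 64.3 to 175 at 24 months, and neutrophil markers 26.5 CPM, against 1.35 to 54.0. Endothelial markers summed to 298 CPM in mouse 50 and 279 in mouse 29, against 109 to 135 at 24 months. The part of these cells in the cathepsin values that stood apart was not tested.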

How the results depend on the processing

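The number of cathepsins past the adjusted threshold was 0 under every alternative, and the smallest adjusted p of any cathepsin was 0.291, for Ctss with no block. Without the block on the mouse 3 genes were called, and Ctss (log2 change 0.76), Ctsz (0.44) and Ctsl (0.26) had an unadjusted p under 0.05. DESeq2's Wald test called 240 genes, among them 1 inhibitor (Serpinb13) and 1 substrate (Col2a1) of the lists. The sign of the change reversed for Ctsc without mouse 50 (-0.17) and without mice 29 and 50 (-0.0645), and for Ctsk likewise (-0.17 and -0.29). Leaving out each mouse in turn gave changes of -0.17 to 0.21 for Ctsc and -0.17 to 0.22 for Ctsk. The other 8 cathepsins had changes above 0 under every alternative. The number of neighbours that differ in the order of levels was 7, with the longest transcript 3, and without mouse 13, 43, 64 or 75 it was 6. The marker relations past the threshold numbered 6, and 1 to 10 with a mouse left out. The SD was larger at 30 months for 6 cathepsins without mice 29 and 50, in place of 10. The cause of these differences was not tested. Every cathepsin had at least 1068 reads in each library.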
